A study of Saccharomyces cerevisiae with 4 samples.

Results

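The 10 genes described here encode the subunits that are found in RNA polymerase III and in neither of the other nuclear polymerases of budding yeast, Saccharomyces cerevisiae. They were chosen by name and not by a rule on measured values, but with earlier results of these data known. The genes are RPO31 (YOR116C), RET1 (YOR207C), RPC82 (YPR190C), RPC53 (YDL150W), RPC37 (YKR025W), RPC34 (YNR003C), RPC31 (YNL151C), RPC25 (YKL144C), RPC17 (YJL011C) and RPC11 (YDR045C). All 10 are among the 7126 features listed, and all 10 were among the 5642 features with a mean of at least 5 normalised reads over the libraries. The RNA came from strain DPY438, whose genotype label is Hsf1-AA, so every library carried the anchor-away allele of Hsf1, the heat shock transcription factor. Rapamycin tethers the tagged protein to another protein that leaves the nucleus. Cultures were kept at 30 °C or heat shocked at 39 °C for 10 min, and each temperature was sampled without the drug and after 45 min of 1 µM rapamycin, which gives 4 groups. Neither the labels nor the design text say whether the drug was added before the heat shock. Each group held 1 library, so the spread between cultures of 1 group could not be estimated, and the ratios between 2 libraries carry no test. An additive count fit over all 4 libraries is given after them. Rapamycin also inhibits the TORC1 kinase of ordinary yeast strains. For DPY438, a rapamycin-resistant TORC1 and the make of the anchor are points not given in the sources used here, so that withdrawal of Hsf1 and any other action of the drug cannot be told apart.

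RNA polymerase III transcribes the transfer RNA genes, the 5S ribosomal RNA gene and a few other short noncoding RNAs such as U6. RPO31 and RET1 encode its catalytic core. The RPC82, RPC34 and RPC31 proteins form a subcomplex that takes part in initiation, RPC53 and RPC37 a dimer used in termination and reinitiation, RPC25 and RPC17 the stalk, and RPC11 the subunit for RNA cleavage. Of the other subunits, RPC40 and RPC19 are shared with RNA polymerase I and RPB5, RPO26, RPB8, RPB10 and RPC10 with polymerases I and II. In yeast the synthesis of this machinery is tied to growth, together with that of ribosomes, and many genes of polymerases I and III carry a promoter element named PAC, for polymerase A and C.

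The promoter windows ran from 250 bases before to 50 bases after each coding start, read from the R64 genome (RefSeq), the assembly that sacCer3 names. The PAC core GATGAG, searched on both strands, was present in the windows of 8 of the 10 genes, and in 1222 of 6001 windows of protein-coding genes, or 20.4%. The longer form GCGATGAG, which contains the core, was in 3 of 10 (RPC82, RPC31 and RPC25) against 3.93% of all windows. RRPE, the ribosomal RNA processing element, was searched as AAAATTTT, which reads the same on both strands, and was in 5 of 10 (RET1, RPC82, RPC53, RPC34 and RPC25) against 9.03%. The general stress element AGGGG was in 2 of 10 (RPC31, inside the coding sequence, and RPC17) against 21.6%, and a pair of heat shock element units, TTCNNGAA, in 3 of 10 (RPC37, RPC17 and RPC11) against 12.9%. The AGGGG match of RPC17 began 248 bases before the coding start, beyond the near end of a tRNA gene 195 bases upstream. A match is a run of letters and not a shown binding site. Of the matches that lie wholly before the coding start, the one nearest to it is printed for each gene in a stretch of 40 bases, on the strand that reads GATGAG, with the core in capitals, because these lines let the surroundings of the element be compared between genes:
RPO31, chrXV:544223-544262, plus strand: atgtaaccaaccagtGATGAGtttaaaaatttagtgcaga
RET1, chrXV:733562-733601, minus strand: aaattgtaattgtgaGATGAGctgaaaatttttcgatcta
RPC82, chrXVI:919143-919182, plus strand: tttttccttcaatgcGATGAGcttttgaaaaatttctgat
RPC53, chrIV:183088-183127, plus strand: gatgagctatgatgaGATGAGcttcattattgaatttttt
RPC37, chrXI:487692-487731, plus strand: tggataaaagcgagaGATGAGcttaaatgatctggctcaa
RPC34, chrXIV:635334-635373, minus strand: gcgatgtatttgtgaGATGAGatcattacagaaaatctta
RPC31, chrXIV:348584-348623, plus strand: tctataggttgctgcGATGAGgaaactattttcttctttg
RPC25, chrXI:176655-176694, plus strand: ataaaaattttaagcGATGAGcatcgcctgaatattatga

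The stretches of RET1, RPC53, RPC37 and RPC34 read gagatgag over the core. Those of RPC82, RPC31 and RPC25 read gcgatgag. The core lay on the strand of the gene in RET1, RPC53, RPC37 and RPC34 and on the opposite strand in RPO31, RPC82, RPC31 and RPC25, and in the printed stretches it began between 61 bases (RPC34) and 240 bases (RPC53) before the coding start. RPC53 and RPC25 are 324 and 299 bases from SAS10 and LTV1, which are transcribed away from them. Their printed cores, at 240 and 194 bases, lay nearer to those neighbours than to the members. RPC37 had further matches over its start codon and inside its coding sequence, and RPC53 an overlapping match just upstream. RPC17 and RPC11 had no match in the window. The whole windows of 3 genes are shown, with every GATGAG of either strand in capitals: the catalytic genes RPO31 and RET1, because their heat shock values differed most clearly within 1 module, and RPC11, as a window without the element:
RPO31 promoter, chrXV:544096-544395, minus strand: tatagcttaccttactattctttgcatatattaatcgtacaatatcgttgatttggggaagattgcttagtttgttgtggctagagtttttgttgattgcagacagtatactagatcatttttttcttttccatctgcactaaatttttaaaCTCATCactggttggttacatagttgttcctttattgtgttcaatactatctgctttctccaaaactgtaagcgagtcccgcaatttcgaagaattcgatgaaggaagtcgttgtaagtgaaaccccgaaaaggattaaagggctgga
RET1 promoter, chrXV:733408-733707, minus strand: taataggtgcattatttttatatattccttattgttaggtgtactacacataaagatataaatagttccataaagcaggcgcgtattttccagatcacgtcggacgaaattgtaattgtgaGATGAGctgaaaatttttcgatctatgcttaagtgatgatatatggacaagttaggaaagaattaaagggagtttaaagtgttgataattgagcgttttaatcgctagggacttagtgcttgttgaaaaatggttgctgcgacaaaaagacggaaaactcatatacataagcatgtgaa
RPC11 promoter, chrIV:548261-548560, minus strand: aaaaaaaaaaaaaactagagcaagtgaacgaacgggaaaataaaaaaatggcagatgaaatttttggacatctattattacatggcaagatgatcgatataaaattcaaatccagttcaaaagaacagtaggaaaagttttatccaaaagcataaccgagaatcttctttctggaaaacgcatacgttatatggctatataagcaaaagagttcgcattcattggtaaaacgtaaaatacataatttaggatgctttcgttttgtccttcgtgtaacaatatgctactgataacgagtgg

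The libraries held between 1561620 and 3231228 recovered reads. Values are the deposited read counts divided by 1 size factor per library, and 1 read was worth 1.43 at 30 °C without rapamycin and 0.888 with it, and 1.5 and 0.961 in the respective heat shock libraries. The 10 genes together had 1095, 2422, 442 and 1018 reads in that order, and the least covered had 28 reads (RPC25), 65 (RPC17), 13 (RPC31) and 27 (RPC11). All intervals are 95% intervals of counting error alone, and several reads can come from 1 molecule when no molecular identifier is used. SSA4, a heat-inducible Hsp70 gene that Hsf1 activates, was at 169, 525, 42107 and 402, high in heat shock without rapamycin and not in the other libraries. HSP82, an Hsp90 gene, was at 612, 424, 27356 and 846. No member overlaps another RefSeq gene. The features YDL151C, YDL152W and YNL150W, whose names place them beside RPC53 and RPC31, matched no RefSeq gene and are listed at 0 in all 4 libraries, and whether they took reads of these genes out of the count was not tested.

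**Figure D1:**
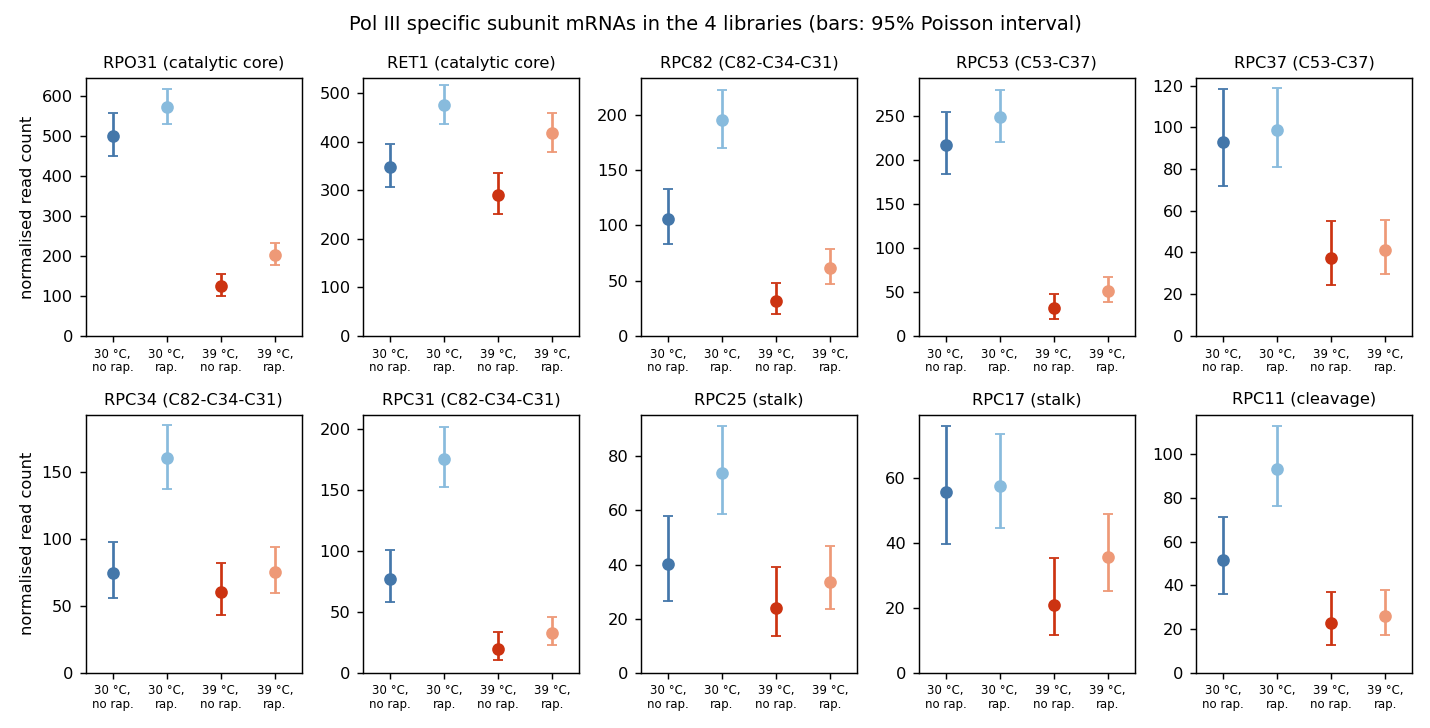
Normalised read counts (y axis, from 0) of the 10 genes in the 4 libraries (x axis, 1 library each), with bars for the 95% Poisson interval of each count. In the panel of RPO31 both 39 °C points, 124 and 204, lie far below the 30 °C points, 502 and 573, whereas in that of RET1 they lie at 291 and 418 against 349 and 475.

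After 10 min at 39 °C without rapamycin, mRNAs of most subunits stood well below their 30 °C level. At least 2-fold lower were 7 of the 10 genes, and 0 were higher by that much, where 19.3% of all 5642 features were at least 2-fold lower and 19.8% at least 2-fold higher. The median log2 ratio of the 10 was -1.33, against 0.02 over all features. Summed over the 10 genes, the level was 1565.5 at 30 °C and 663 in heat shock, 2.36-fold lower (2.11 to 2.64). Without RET1 the sum was 3.27-fold lower (2.84 to 3.78). RPC53 had the lowest ratio and RET1 the highest. In RNA from a whole culture, a lower level per cell and a smaller share of cells with the mRNA cannot be told apart.

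With rapamycin present, 8 of the 10 were lower in heat shock by at least 2-fold and 0 were higher by at least that, against 14.6% and 18.3% of all features. On library totals and on protein-coding totals 5 were at least 2-fold lower. The median of all features moved by 0.40 and 0.24 there, and fewer of all features were 2-fold lower, with counts in the last section. On the deposited values the median log2 ratio of the 10 was -1.36, against -0.00 over all features. Their summed level was 2152 at 30 °C and 978 in heat shock, 2.20-fold lower (2.04 to 2.37). The libraries of this comparison are not those of the comparison without rapamycin. In each comparison all 10 genes had a ratio below 1. With rapamycin this included RET1, whose ratio was above 1 when the libraries were scaled to their totals, to their protein-coding totals or to their totals without the 20 highest features. Relative to the median of all features, the median of the 10 was between -1.37 and -1.24 without rapamycin and between -1.37 and -1.31 with it under every scaling, pseudocount and filter tried.

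**Figure D2:**
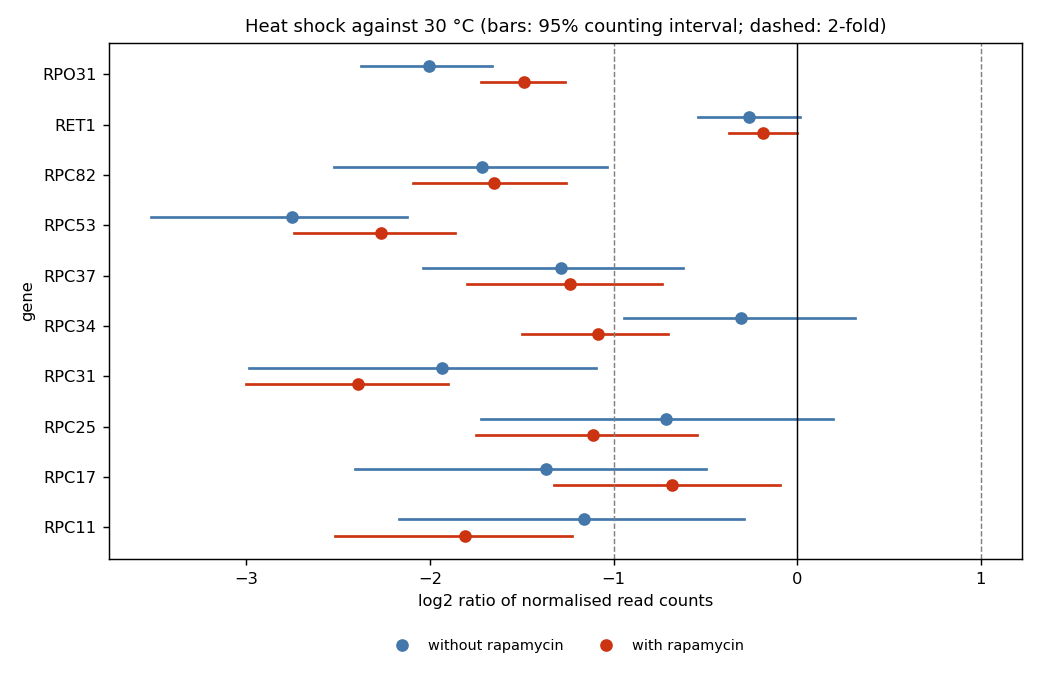
Log2 ratio of heat shock to 30 °C (x axis) for each gene (y axis), without rapamycin in blue and with it in red, with 95% counting intervals and dashed lines at 2-fold. All 20 points lie left of 0, and those of RET1, at -0.26 and -0.19, are the closest to it.

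The catalytic subunits differed from each other. RPO31 (chromosome XV, 539763 to 544145, minus strand), which encodes the largest subunit, was at 502 normalised reads at 30 °C and 573 with rapamycin, and at 124 and 204 in heat shock. Both heat shock values were below both 30 °C values, 4.01-fold lower without rapamycin (3.17 to 5.19) and 2.80-fold lower with it (2.41 to 3.30). RET1 (chromosome XV, 730008 to 733457, minus strand), which encodes its catalytic partner, was at 349, 475, 291 and 418, in the same order of libraries. Its heat shock value with rapamycin was above its 30 °C value without. The heat shock value was 1.20-fold lower when rapamycin was absent (0.989 to 1.46) and 1.14-fold when it was present (1.00 to 1.29), so that the interval of the former included 1.

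A ratio of 2 genes within a library does not depend on its size factor. Per kilobase of coding sequence, the level of RET1 was 0.883 times that of RPO31 at 30 °C without rapamycin (0.747 to 1.04) and 1.05 times with it (0.938 to 1.18). In heat shock it was 2.97 times (2.28 to 3.89) without rapamycin and 2.61 times (2.21 to 3.09) with it. The ratio was thus 3.36-fold (2.48 to 4.56) and 2.47-fold (2.02 to 3.02) higher in heat shock. The corresponding catalytic pairs had smaller shifts in heat shock. For RPA135 over RPA190 of polymerase I they were 1.28-fold (1.05 to 1.56) without rapamycin and 1.05-fold (0.915 to 1.20) with it. For RPB2 over RPO21 of polymerase II they were 1.57-fold (1.34 to 1.84) and 0.962-fold (0.850 to 1.09). None of these intervals overlapped that of RET1 over RPO31 in the same arm. Such ratios also differed between libraries without heat shock. At 30 °C, RPB2 over RPO21 was 1.70-fold higher with rapamycin than without (1.49 to 1.94). RET1 over RPO31 was 1.19 times (0.977 to 1.46) and RPA135 over RPA190 0.975 times (0.874 to 1.09) its value without rapamycin.

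**Figure D3:**
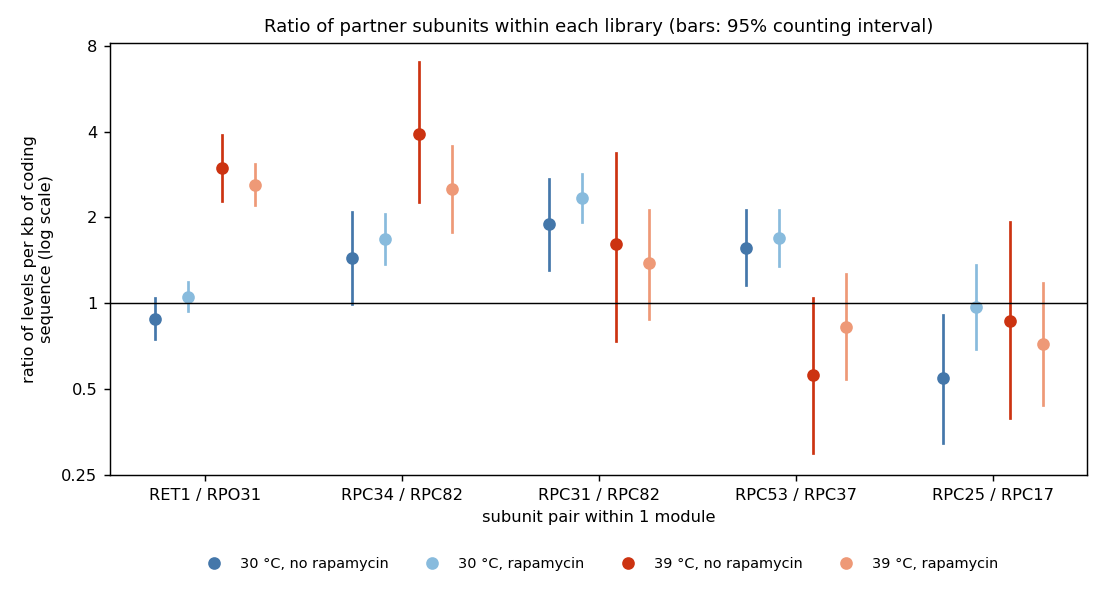
Ratio of the levels per kilobase of coding sequence of 2 subunits of 1 module (y axis, log scale) for 5 pairs (x axis) in each library, with 95% counting intervals. RET1 over RPO31 lies near 1 in both 30 °C libraries and at 2.97 and 2.61 in heat shock, while RPC53 over RPC37 lies above 1 at 30 °C, at 1.56 and 1.69, and below 1 in heat shock, at 0.562 and 0.825.

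In the subcomplex of RPC82, RPC34 and RPC31, RPC34 had the smallest heat shock fold difference in both arms. RPC82 (chromosome XVI, 917077 to 919041, minus strand) was at 106 and 195 at 30 °C without and with rapamycin and at 31.5 and 61.5 in heat shock, 3.29-fold lower (2.05 to 5.75) and 3.14-fold lower (2.40 to 4.27). RPC31 (chromosome XIV, 347766 to 348521, minus strand), an acidic subunit, was at 77.2 and 175.9 at 30 °C and at 19.5 and 32.7 in heat shock. It was 3.82-fold lower (2.13 to 7.91) and 5.25-fold lower (3.73 to 7.99). Heat shock and 30 °C values did not overlap for either gene.

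RPC34 (chromosome XIV, 634344 to 635297, minus strand), whose protein contacts the initiation factor TFIIIB, was at 74.3 and 159.9 at 30 °C and at 60.0 and 74.9 in heat shock. Its 30 °C value without rapamycin lay between the heat shock values, and its value at 30 °C with rapamycin stood above the other three. It was 1.24-fold lower without rapamycin (0.805 to 1.92) and 2.12-fold lower with it (1.63 to 2.82). Per kilobase, RPC34 over RPC31 went from 0.763 at 30 °C (0.511 to 1.14) to 2.44 in heat shock (1.28 to 4.97) without rapamycin. With rapamycin it went from 0.720 (0.585 to 0.886) to 1.82 (1.20 to 2.81). In heat shock, RPC34 over RPC82 was 2.71 times its 30 °C value without rapamycin (1.43 to 5.12) and 1.49 times with it (1.01 to 2.19). RPC31 over RPC82 was 0.848 times its 30 °C value (0.391 to 1.84) and 0.590 times (0.373 to 0.933). With rapamycin the heat shock ratio of RPC82 thus lay between those of RPC34 and RPC31, and to which it was nearer was not tested.

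In the dimer, RPC53 (chromosome IV, 183343 to 184611, plus strand) was at 217 and 249 at 30 °C and at 31.5 and 50.9 in heat shock. These were the largest fold differences among the 10 without rapamycin, 6.72-fold lower (4.36 to 11.5), and the next largest after RPC31 with it, 4.81-fold lower (3.63 to 6.68). RPC37 (chromosome XI, 487770 to 488618, plus strand) was at 92.9 and 98.6 at 30 °C and at 37.5 and 41.3 in heat shock, 2.44-fold (1.54 to 4.11) and 2.35-fold lower (1.66 to 3.48). Heat shock values were below 30 °C values for both genes. The ratio of RPC53 to RPC37 per kilobase was 0.359 times its 30 °C value in heat shock without rapamycin (0.188 to 0.687) and 0.489 times with it (0.309 to 0.773).

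The stalk genes and RPC11 had few reads and wide intervals. RPC25 (chromosome XI, 175843 to 176481, minus strand) was at 40.0 and 73.7 at 30 °C and at 24.0 and 33.6 in heat shock, 1.64-fold lower (0.872 to 3.30) and 2.16-fold lower (1.46 to 3.35). RPC17 (chromosome X, 414285 to 414770, minus strand) was at 55.8 and 57.7 and then at 21.0 and 35.6, 2.58-fold lower (1.41 to 5.30) and 1.61-fold lower (1.07 to 2.50). Both heat shock values were below both 30 °C values in each stalk gene, and a shift in their ratio was not detectable at this depth (1.59 times its 30 °C value without rapamycin, 0.669 to 3.78, and 0.741 times with it, 0.421 to 1.30). RPC11 (chromosome IV, 547978 to 548310, minus strand), a relative of the mRNA cleavage factor TFIIS, was at 51.5 and 93.3 at 30 °C and at 22.5 and 25.9 in heat shock. It was 2.23-fold lower (1.22 to 4.50) and 3.5-fold lower (2.34 to 5.71), again with no overlap.

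Per kilobase of coding sequence the 10 genes lay within 3.18-fold of each other at 30 °C without rapamycin, from 53.8 for RPC82 to 171 for RPC53. In heat shock without rapamycin they lay within 5.26-fold, from 16.02 for RPC82 to 84.3 for RET1. RPC82 was the lowest in all 4 libraries. RET1 was the seventh highest at 30 °C without rapamycin, the fifth with it, and the highest in both heat shock libraries. RPC53 was the highest at 30 °C without rapamycin, the third with it, and the ninth in both heat shock libraries. Neighbours in these orders mostly did not differ beyond counting error. At 30 °C without rapamycin the intervals of RPC17, RPO31, RPC37, RPC31 and RET1, at 101 to 115 per kilobase, all overlapped. In heat shock with rapamycin that of RET1, at 121 (110.0 to 133), lay above those of all others but RPC11 (77.9, 51.3 to 113).

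The promoter elements and these ratios are set side by side here, without a test. RPC17 and RPC11, without GATGAG, were 2.58-fold and 2.23-fold lower in heat shock without rapamycin. The 5 genes with both GATGAG and AAAATTTT covered the whole range of the 10: RET1, RPC34, RPC25, RPC82 and RPC53 were 1.20-fold, 1.24-fold, 1.64-fold, 3.29-fold and 6.72-fold lower. Some upstream neighbours are transcribed away from a member, with 299 to 467 bases between the coding sequences. Among them the ribosome assembly genes DBP7 beside RPC37, SAS10 beside RPC53 and LTV1 beside RPC25 were 15.5-fold (7.63 to 47.8), 4.39-fold (3.13 to 6.46) and 2.92-fold lower (2.05 to 4.33) in heat shock without rapamycin. PTP2, a phosphatase gene beside RET1, was 2.66-fold higher (1.91 to 3.83), and QCR2, a respiratory chain gene beside RPC82, was higher by 1.82-fold (1.54 to 2.17). Farther off, RPT5 beside RPO31 (883 bases) was 1.71-fold higher (1.42 to 2.06) and SWM2 beside RPC34 (645 bases) 1.45-fold higher (0.515 to 4.64). The upstream neighbour of RPC17, 195 bases away, is a tRNA gene transcribed away from it, for which no value was matched. Of the genes that end opposite the end of a member, NOC2 beside RET1 was 8.63-fold lower (6.03 to 13.3). GCN3 beside RPC37 and HEM13 beside RPC11 were 1.79-fold (1.33 to 2.45) and 1.17-fold lower (0.787 to 1.77). SKI3 beside RPC82, INN1 beside RPC31 and RPT1 beside RPC25 were 1.08-fold (0.876 to 1.34), 1.48-fold (0.951 to 2.34) and 1.39-fold higher (1.18 to 1.64). With rapamycin the direction was the other one for some of these neighbours. RPT5 was then 1.21-fold lower (1.05 to 1.40), SWM2 1.97-fold (1.07 to 4.03), SKI3 1.25-fold (1.07 to 1.47) and RPT1 1.25-fold (1.08 to 1.43). HEM13 was 1.37-fold higher (1.002 to 1.89), and the rest of the neighbours named kept their direction. These neighbours were chosen by position after the members' values were seen. Strand handling in the count is not stated, so reads of overlapping transcripts from opposite strands cannot be told apart.

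The heat shock ratio with rapamycin minus that without, on the log2 scale, had a median of 0.06 over the 10 genes and 0.06 over all features. It was above 0 for 6 of the 10 and for 2998 of all 5642 features. The interval left out 0 for RPO31, at 0.52 (0.11 to 0.93), and for RPC34, at -0.78 (-1.49 to -0.08). How many of all features had such an interval was not counted. For RPC34 the 30 °C value with rapamycin was the high one. Its difference was 0.06 on library totals, -0.21 on protein-coding totals and -0.20 on totals without the 20 highest features. Under scaling to library totals the median of the 10 was 0.89, where the all-feature medians of the heat shock ratios moved by -0.44 without rapamycin and 0.40 with it.

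Rapamycin at 30 °C went with somewhat higher levels of these mRNAs. All 10 had a ratio above 1, from 1.03-fold for RPC17 (0.686 to 1.58) to 2.26-fold for RPC31 (1.68 to 3.14), although RPO31, RPC53, RPC37 and RPC17 were below 1 when libraries were scaled to their totals, to protein-coding totals or to totals without the 20 highest features. RPC31 and RPC34 (2.14-fold, 1.57 to 2.99) were at least 2-fold higher and none was at least 2-fold lower, where 4.7% and 4.02% of all features were. On each of those 3 scalings 0 of the 10 were at least 2-fold higher. The median of all features moved by -0.36, -0.24 and -0.20 on them, and fewer of all features were 2-fold higher, with counts in the last section. The intervals of 7 genes left out 1, which besides RPC31 and RPC34 were RPC82 (1.84-fold, 1.41 to 2.44), RPC25 (1.82-fold, 1.19 to 2.94), RPC11 (1.80-fold, 1.23 to 2.73), RET1 (1.36-fold, 1.17 to 1.59) and, barely, RPO31 (1.14-fold, 1.001 to 1.30). The share of all features with such an interval was not counted, so the 7 genes have no background to be set against. The median log2 ratio was 0.65 against 0.01 over all features, and 0.29 on library totals. All 3 genes of the RPC82, RPC34 and RPC31 subcomplex were thus at least 1.84-fold higher, but RPC25 and RPC11 of other modules lay just below that. Over the scalings and pseudocounts tried, the log2 ratios of RPC82, RPC34 and RPC31 went down to 0.52, 0.74 and 0.82. The library at 30 °C with rapamycin had the most reads and the highest share of reads on tRNA features, 18.3%, against 14.2% without rapamycin, and the part of this in the ratios was not tested.

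In heat shock the 10 genes were again higher with rapamycin than without, from 1.10-fold for RPC37 (0.658 to 1.88) to 1.92-fold for RPC82 (1.18 to 3.37), and this direction held under all 5 other scalings. By at least 2-fold, 0 were higher or lower, against 4.56% and 2.46% of all features, but 6, 4 and 5 were higher by that much on library totals, protein-coding totals and totals without the 20 highest features. On those scalings the median of all features moved by 0.48, 0.33 and 0.38. More of all features were then at least 2-fold higher too, with counts in the last section. The intervals of RPC82, RPO31 (1.63-fold, 1.26 to 2.14) and RET1 (1.44-fold, 1.21 to 1.71) left out 1, again without a count over all features. The median was 0.60 against 0.04 over all features. Summed, the 10 genes were 1.48-fold higher with rapamycin in heat shock (1.32 to 1.65) and 1.37-fold higher at 30 °C (1.28 to 1.48). These comparisons share libraries with those of heat shock, so the 4 sets of ratios are not independent.

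**Figure D4:**
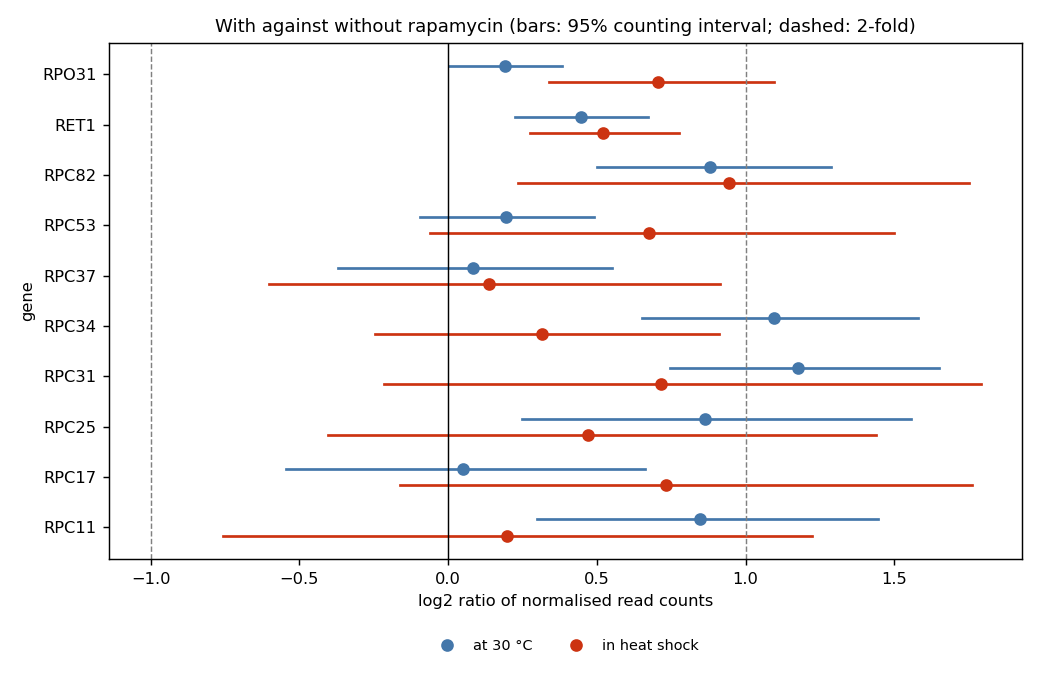
Log2 ratio of the library with rapamycin to that without (x axis) for each gene (y axis), at 30 °C in blue and in heat shock in red, with 95% counting intervals and dashed lines at 2-fold. All 20 points lie right of 0, most of them between 0 and 1, and 10 of the 20 intervals leave out 0, a count not made over all features.

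An additive count fit over the 4 libraries, edgeR's quasi-likelihood test with heat and rapamycin as terms, has 1 residual degree of freedom and treats a joint effect of both factors as noise. At a Benjamini-Hochberg adjusted threshold of 0.05 it called 39.5% of all features for heat. Among these were 6 of the 10 genes, all lower in heat shock: RPO31, RPC82, RPC53, RPC37, RPC31 and RPC11. Of all 5642 features, 1090 were called lower in heat shock. For rapamycin it called 0.461% of all features and none of the 10, and 3 of the 10 (RPC82, RPC34 and RPC31) and 369 features in all had an unadjusted p under 0.05. The fit compares these libraries and not the conditions.

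The subunits that polymerase III shares with the other polymerases were also lower in heat shock. RPC19, in polymerases I and III, was at 106 and 185 at 30 °C and at 10.5 and 23.1 in heat shock, and RPC40 at 303 and 447 and then at 103 and 179, so that both were at least 2-fold lower in both arms. Of the 5 subunits common to all 3 polymerases, 4 were at least 2-fold lower without rapamycin (median log2 -1.87) and 4 with it (-1.75). RPB10 was the exception, at -0.72 and -0.79. RPC10, a small zinc-binding subunit, had the lowest ratios of the 5, -2.80 and -2.54, and none of the 5 had GATGAG in its window.

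All 7 polymerase I specific genes were at least 2-fold lower in both arms, with medians of -2.58 and -1.89, and 6 of 7 had GATGAG. Of the 7 polymerase II specific genes, 2 were at least 2-fold lower without rapamycin (RPB3 at -1.07 and RPB9 at -1.49) and 2 with it (RPB9 at -1.02 and RPB11 at -1.37). Their medians were -0.66 and -0.27, the latter 0.13 on library totals, and 1 of 7 (RPB2) had GATGAG. The 10 polymerase III genes, at -1.33 and -1.36, lay between these groups in both arms. The differences between the groups were not tested.

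**Figure D5:**
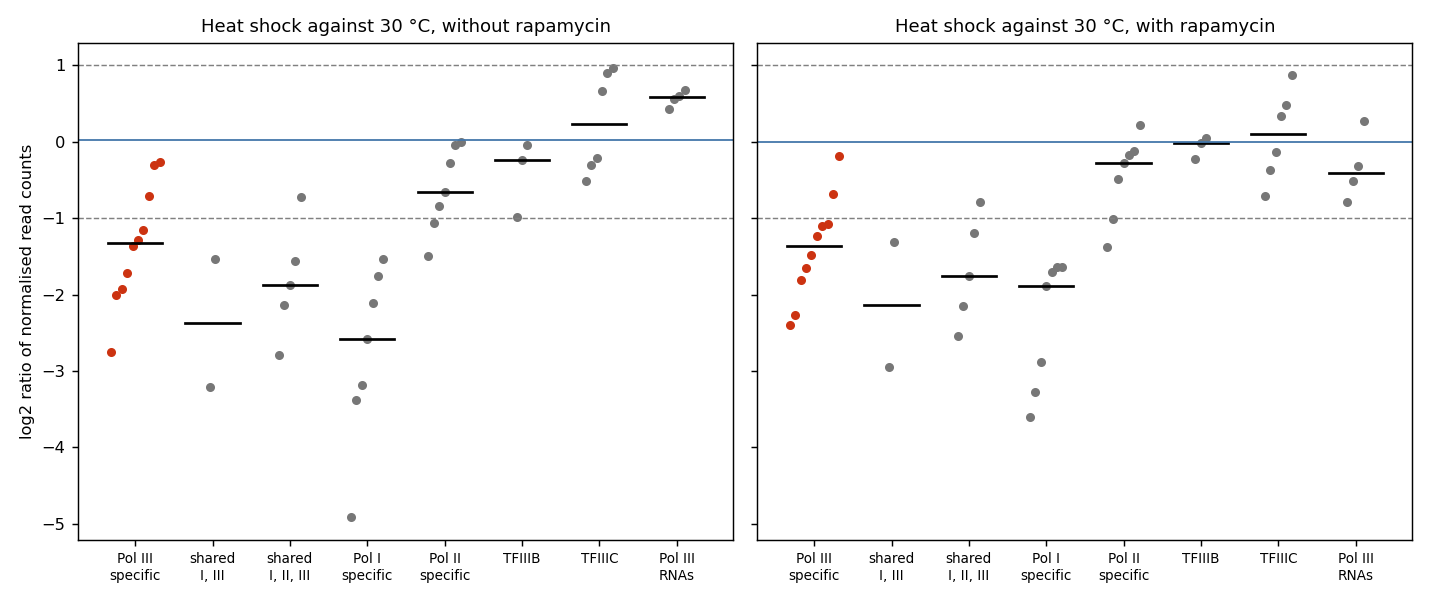
Log2 ratio of heat shock to 30 °C (y axis) for single genes (points) of 8 gene groups (x axis), without rapamycin on the left and with it on the right. Black bars are group medians, the blue line is the median of all features and dashed lines mark 2-fold. The polymerase III specific genes, in red, have medians of -1.33 and -1.36, and those of TFIIIB and TFIIIC lie within 0.25 of 0.

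On the deposited values the genes of TFIIIB and TFIIIC had heat shock ratios nearer to 0 than most subunit genes had, a difference that was not tested. TFIIIC binds the promoters of tRNA genes, and on these values none of its 6 genes was past 2-fold in either direction in either arm. Their medians of 0.23 and 0.10 were -0.21 and 0.51 on library totals. TFC8, at 48.6 and 40.9 at 30 °C and 96.0 and 75.9 in heat shock, had the highest ratio of the 6 without rapamycin, 0.97 on the log2 scale, and TFC1 the lowest, -0.51. TFIIIB recruits the polymerase, and on the deposited values none of its 3 genes was past 2-fold. Their medians of -0.24 and -0.02 were -0.68 and 0.38 on library totals. BRF1 was at 103, 89.7, 87.0 and 93.2, BDP1 at 116, 166, 112 and 141, and SPT15, the TATA-binding protein gene that serves all 3 polymerases, at 257, 177, 129 and 174, with a log2 ratio of -0.99 in heat shock without rapamycin.

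PZF1, the gene of TFIIIA, which is needed for 5S RNA synthesis, was at 52.9, 65.7, 22.5 and 40.3, with log2 ratios in heat shock of -1.20 and -0.69. MAF1, the gene of the repressor of polymerase III, was at 124, 131, 163 and 154. Its ratios were between 2-fold higher and 2-fold lower in all 4 comparisons. Both assembly factor genes were at least 2-fold lower in both arms: RBS1 at -1.06 and -1.19, and BUD27, at 113 and 118 at 30 °C and 9.0 and 33.6 in heat shock, at -3.51 and -1.78.

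RNAs made by polymerase III were measured in the same libraries. In heat shock without rapamycin U6 RNA (SNR6), the RNase P RNA (RPR1), the signal recognition particle RNA (SCR1) and the box C/D RNA SNR52 had log2 ratios of 0.60, 0.56, 0.43 and 0.67. Their median of 0.58 was 0.14 on library totals, where SCR1 was at -0.01. With rapamycin the log2 ratios of these RNAs were 0.27, -0.51, -0.79 and -0.32, and their median of -0.41 was -0.01 on library totals. These stable RNAs are measured as levels in total RNA, and a level does not give the rate of transcription. The 297 features with tRNA names, 32 of them with reads, took 14.2%, 18.3%, 13.7% and 10.03% of all reads in the 4 libraries. On the deposited values, the heat shock library without rapamycin had 1.32 times the 30 °C sum (1.31 to 1.32), although its share of all reads was slightly lower. With rapamycin the sum was 2.42-fold lower in heat shock (2.41 to 2.43).

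The 5 other features whose pattern over the 4 libraries was most like the median pattern of the 10 genes were SHB17, RCL1, FOL1, YVH1 and YBR242W. Likeness was the Euclidean distance between log2 profiles centred on their own means, over 4308 features with a mean of at least 50 that are neither tRNA features nor in the gene groups named. Their distances were 0.05 to 0.13, against a median of 1.52 over all those features. SHB17, the closest, was at 322, 454, 132 and 170.1. The members' own distances ran from 0.33 for RPC11 to 1.20 for RPC53, with RET1 at 1.12. A profile of 4 libraries is short, and likeness within it is a description only.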

How the data were processed

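RNA was sequenced from 4 libraries, 1 per group. Per the submitters' processing notes the reads went through TopHat and HTSeq with the build sacCer3, and no version or setting is named. The deposited signal values, as the authors made them, are gene read counts divided by 1 size factor per library. This was read from the values, of which all above 0 (100%) are whole multiples of the library's smallest step to within 0.0055. The method behind the factors was not given in the sources used here. No further scaling was applied, and 5642 of 7126 features passed a filter at a mean of 5. Ratios are on log2(value + 1), which understates the change of low genes, and folds are their antilogs. At least 2-fold is a rule of size and not a test. Intervals (95%) come from the recovered reads, without the pseudocount: exact conditional binomial for folds and for ratios within a library, exact Poisson for levels, and a normal approximation on the log scale for differences between ratios. They cover counting error only. Names came from the RefSeq table of R64, which 6162 features matched, and promoter windows and coding lengths from the R64 genome and annotation. The genes named are the members, the genes of the lists, neighbours of the members, and the 5 of most like pattern. Members and lists were chosen with earlier results of these data known. edgeR 4.0.16 (R 4.3.3) gave TMM scaling and the additive count fit with Benjamini-Hochberg adjustment. Code for ratios, intervals and the fit was tested on simulated data.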

Additional observations from a re-analysis of the deposited data

Results flagged for a closer look

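Genes are given here whose ratio for the same contrast lay on opposite sides of 1 in both arms, with each counting interval leaving out 1. None of the 10 subunit genes did so. The difference between arms was not tested, since each arm held 1 library per condition.

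Among RNAs made by polymerase III, the log2 ratio of heat shock to 30 °C was 0.56 without rapamycin and -0.51 with it for RPR1, 0.43 and -0.79 for SCR1, and 0.67 and -0.32 for SNR52. In the ratio of rapamycin to none, RPR1 was at 0.45 at 30 °C and -0.62 in heat shock, SCR1 at 0.71 and -0.52, and SNR52 at 0.27 and -0.72. SPT15 was at -0.54 at 30 °C and 0.43 in heat shock for rapamycin. The Hsf1 target SSA4 was at 7.95 and -0.39 for heat shock, and at 1.63 and -6.71 for rapamycin. Scaling to library totals moved the median of all features by -0.44 and 0.40 for heat shock without and with rapamycin, and by -0.36 and 0.48 for rapamycin at 30 °C and in heat shock. On library totals the arms no longer lay on opposite sides of 1 for heat shock in SCR1 (-0.01 and -0.39), SNR52 (0.23 and 0.09) and SSA4 (7.51 and 0.02), nor for rapamycin in SNR52 (-0.09 and -0.23). The other pairs of values, and all pairs under the other 4 scalings, stayed on opposite sides.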

How the results depend on the processing

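With 1 library per group no library could be left out. No paired analysis was possible because each group holds a single library and the labels carry no replicate numbers. None of the members' values past 2-fold changed sign under any alternative. Median-of-ratios factors and TMM moved no summary value by more than 1.5 times, and the medians of all features by at most 0.01. The remaining scalings shifted those medians by more: library totals by up to 0.48 on the log2 scale, protein-coding totals by up to 0.33 and totals without the 20 highest features by up to 0.40. In that order of scalings, members at least 2-fold higher with rapamycin at 30 °C numbered 0, 0 and 0 in place of 2, and those in heat shock 6, 4 and 5 in place of 0. Members at least 2-fold lower in heat shock with rapamycin numbered 5 on library totals and 5 on protein-coding totals in place of 8, and the median difference of heat shock ratios was 0.894 on library totals.

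The filter kept 5649, 5644 and 5645 features on library totals, protein-coding totals and totals without the 20 highest features. Over all features on library totals, 723 were at least 2-fold higher and 1701 lower in heat shock without rapamycin, and 1588 and 432 with it (549 lower on protein-coding totals). Features at least 2-fold higher with rapamycin at 30 °C numbered 113, 138 and 157 and lower 589, 423 and 373 in the same order of scalings, and in heat shock 871, 586 and 679 higher and 76, 91 and 86 lower. The share of higher features among those past 2-fold, 50.6%, 55.6%, 53.9% and 64.9% for heat shock without and with rapamycin and rapamycin at 30 °C and in heat shock, was 29.8%, 78.6%, 16.1% and 92.0% on library totals. Without the filter on low values 408 features were lower with rapamycin at 30 °C and 293 in heat shock, and with a pseudocount of 5 the former count was 149. Features past 2-fold for rapamycin on the mean of both arms numbered 203, and 134 with the filter at a mean of 20, 353 without a filter and 127 with a pseudocount of 5, while the edgeR quasi-likelihood test called 26. For heat it called 2230, where 1888 features were past 2-fold on the mean of both arms. The causes were not tested.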
